A study of Mus musculus with 15 samples.

Results

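The lungs described here are those of 5 female wild type Balb mice that were sensitised to ovalbumin (OVA), challenged with it by nebuliser and dosed at 30 mg/kg with a monoclonal antibody to the mouse receptor chain IL-4Ra. They are called the antibody group here and are set against the lungs of 5 female wild type Balb mice whose sensitisation was a sham one with saline and whose antibody was an isotype control. Together these are 10 of the 15 whole-lung libraries of the series, chosen by their labels. The remaining 5, from mice given OVA and the isotype control, are shown beside them where a level needs a second reference. The 2 groups differ in both OVA and the antibody, and no library of saline with anti-IL-4Ra was analysed here, so effects of the antibody on a lung without OVA cannot be told apart in these values. The sources used here do not say when the antibody was dosed or the lungs taken.

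IL-4Ra is the receptor chain shared by the receptors of IL-4 and IL-13. When either cytokine binds, Janus kinases attached to the receptor phosphorylate STAT6, which enters the nucleus and turns on target genes. In the allergic lung this route is known for goblet cell mucus, for alternatively activated macrophages, for the eotaxins that draw in eosinophils, and for class switching to IgE. The sensitisation of T cells, their proliferation and much of innate recruitment can also run through other cytokines. Which groups of genes stay apart from saline when the receptor is blocked is the question this comparison puts.

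Expected counts per library summed to 16774300 to 27570700 with saline and to 12317800 to 16914500 with OVA and anti-IL-4Ra. The exact two-sided permutation test of these totals gave p = 0.0159, adjusted p = 0.0636 over 8 tests of library measures. Levels are CPM, counts scaled to a common library size with TMM, and genes were tested with edgeR's quasi-likelihood test, adjusted over 15905 genes and called at an adjusted p under 0.05. In these bulk lungs, fewer cells of a type and less RNA per cell cannot be told apart. Lung markers were present in each of the 10 libraries, with Sftpc of alveolar type 2 cells at 1752 CPM or more and Scgb1a1 of club cells at 4022 CPM or more. Rn45s, the ribosomal RNA precursor, took 2.88, 1.19, 1.71, 1.73 and 1.24% of expected counts with saline. It took 9.80, 3.10, 9.79, 12.4 and 1.65% with anti-IL-4Ra (exact permutation p = 0.0317, two-sided; adjusted p = 0.0845 over 8 tests of library measures). Antibody replicate 5 was within the saline range, replicate 2 just above it and replicates 1, 3 and 4 far above it, while the OVA libraries with the isotype control took 4.31 to 12.4%. The summed level of 12 cardiac muscle genes, 11 of them tested, was 775.5 to 2297 CPM with saline. With anti-IL-4Ra it was 130.2 to 607.4 CPM, without overlap (exact permutation p = 0.00794, the smallest the design allows, adjusted p = 0.0635).

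Because the Rn45s share and the cardiac level move with the groups, the fit against saline was repeated. The repeats took the Rn45s share as a covariate, the cardiac level as a covariate, and antibody replicates 2 and 5 alone. These refits are called the 3 checks, always in that order, and the last was added after the data were seen. Replicates 2 and 5 had the lowest Rn45s shares of the antibody group, so the first and last checks are not separate support. The part of either measure in a result was not tested beyond them. Library totals moved with the groups too, and no fit took them as a covariate. A call can be lost in a check with its fold unchanged, so a lost call does not show a smaller change.

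Between the 2 groups, 4236 of 15905 genes were called (26.6%), 2211 of them higher (13.9%) and 2025 lower (12.7%) with OVA and anti-IL-4Ra. The median log2 change over all tested genes was 0.02. By at least 2-fold, 1174 rose and 458 fell, so most of the larger changes were increases. The 5 and 5 libraries did not overlap in 1516 genes on the higher side (9.53%) and 1635 on the lower side (10.3%). Of the called genes, 275 higher and 18 lower passed the threshold in the same direction in all 3 checks. Singly, 315 of the higher and 49 of the lower calls were kept with the Rn45s share, 569 and 235 with the cardiac level, and 405 and 37 with replicates 2 and 5 alone. With antibody replicates 1, 3 and 4 alone, also fitted after the data were seen, 2069 and 1744 were kept. Without antibody replicate 3, 1247 genes were called lower, which moved that count by more than 1.5 times. With OVA and the isotype control against the same saline libraries, 5898 genes were called (37.1%), 3069 higher (19.3%) and 2829 lower (17.8%). Between the antibody and isotype groups under OVA, 48 were called (0.302%), 22 higher (0.138%) and 26 lower (0.163%).

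A set of 54 lists, 31 of function and 23 of cell type markers, with 791 different tested genes, describes what these calls were. Programs above saline were mucus, cell division, T cell co-stimulation, regulatory and helper T cell genes, antibody secretion, class II presentation, part of the macrophage and chemokine genes, and C1q complement. Endothelial, alveolar type 1, cardiac and xenobiotic metabolism genes were below saline. Not all of these calls held in the 3 checks. Of the higher calls, 20, 28 and 22 of 32 held for cell division and 9, 9 and 10 of 16 for co-stimulation. For class II presentation 1, 2 and 1 of 10 held, and for plasma cell genes 1, 7 and 1 of 10. Of the lower calls, 0, 3 and 0 held for endothelium and 0, 1 and 0 for alveolar type 1 cells. For xenobiotic metabolism 0, 2 and 0 held, and for cardiac muscle none.

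**Figure D1:**
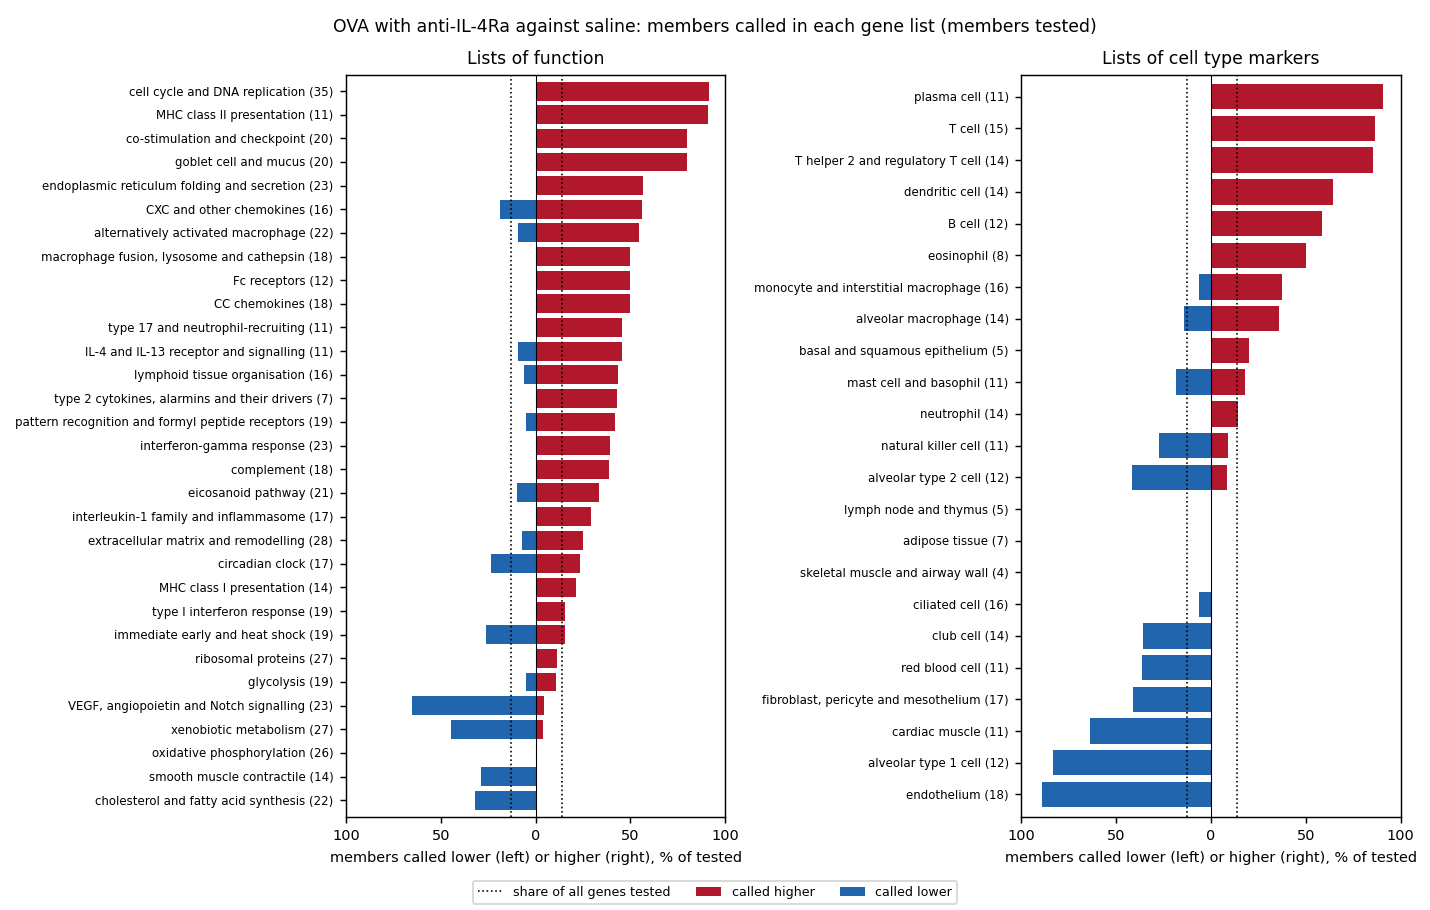
Share of the tested members of each list that were called higher (red, to the right) or lower (blue, to the left) with OVA and anti-IL-4Ra than with saline, in %, with the number tested in brackets. Dotted lines mark the shares over all tested genes (13.9% and 12.7%). Cell cycle, class II and plasma cell lists reach furthest to the right, endothelium and alveolar type 1 cells furthest to the left.

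The list of cell division held the largest share of called members of any list of function. Of 35 genes for DNA replication and mitosis, 32 were higher and none lower, with a median log2 change of 1.95. It is the list whose promoters are printed, for its 3 members with the smallest adjusted p that have a single promoter in the table. Each runs from 250 bases before to 50 after the RefSeq start, 5′ to 3′ (GRCm38.p6). Capitals mark CCAAT, the box bound by NF-Y, and TTTGAA, the core of the cell cycle homology region through which the DREAM complex acts, on either strand (ATTGG and TTCAAA on the other).
Top2a, DNA topoisomerase of mitosis, chr11:99024140-99024439, minus strand:
Top2a: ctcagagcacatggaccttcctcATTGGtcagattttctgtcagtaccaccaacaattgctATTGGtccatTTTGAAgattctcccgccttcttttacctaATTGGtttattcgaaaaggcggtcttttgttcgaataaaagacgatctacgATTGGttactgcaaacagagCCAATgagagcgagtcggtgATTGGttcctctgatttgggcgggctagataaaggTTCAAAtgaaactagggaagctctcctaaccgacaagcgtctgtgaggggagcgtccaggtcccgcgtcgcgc
Rrm2, a subunit of ribonucleotide reductase, chr12:24708004-24708303, plus strand:
Rrm2: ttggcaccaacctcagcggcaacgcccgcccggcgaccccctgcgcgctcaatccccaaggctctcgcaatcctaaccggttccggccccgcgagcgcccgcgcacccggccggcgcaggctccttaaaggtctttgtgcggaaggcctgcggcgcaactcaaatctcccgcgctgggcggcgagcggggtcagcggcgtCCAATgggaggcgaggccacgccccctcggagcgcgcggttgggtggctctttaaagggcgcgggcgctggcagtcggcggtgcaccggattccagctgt
Cdk1, the kinase that drives entry into mitosis, chr10:69352863-69353162, minus strand:
Cdk1: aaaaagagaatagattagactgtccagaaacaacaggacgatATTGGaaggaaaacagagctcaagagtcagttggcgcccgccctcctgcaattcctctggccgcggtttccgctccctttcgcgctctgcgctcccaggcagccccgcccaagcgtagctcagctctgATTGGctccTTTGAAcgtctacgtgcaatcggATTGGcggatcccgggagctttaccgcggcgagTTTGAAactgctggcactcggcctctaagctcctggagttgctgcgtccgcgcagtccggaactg
The Top2a window held 6 CCAAT and 2 TTTGAA matches, the Cdk1 window 3 and 2, and the Rrm2 window 1 and 0. Among the promoters of the list, 22 of 29 (75.9%) held CCAAT and 11 (37.9%) held TTTGAA, against 37.4% and 17.9% of all 32851 promoters in the table. Neither share was the largest of the lists of function. CCAAT was in 18 of 20 promoters of endoplasmic reticulum folding genes and 7 of 9 of class II presentation genes. TTTGAA was in 6 of 12 of alternatively activated macrophage genes. The remaining lists of function had smaller shares than cell division. A match of TTC, any 4 bases and GAA, the core bound by STAT6, was in 1 of the 29 cell division promoters (3.45%) against 6.95% of all promoters. That match is in the Top2a window, where it begins with the same bases as the TTCAAA match and is not marked apart. The STAT6 core was in 4 of 12 promoters (33.3%) of alternatively activated macrophage genes and in none of 12 of goblet cell genes. Other lists had similar shares, with 4 of 11 (36.4%) for type 2 cytokines and alarmins and 9 of 25 (36.0%) for the interleukin-1 family. Over all lists of function together it was in 44 of 506 (8.7%). These are matches of letters, and not every list member was found in the table. Found were 28 of 35 for cell division, 12 of 22 for alternatively activated macrophages, 10 of 20 for goblet cells and 435 of 579 over all lists of function.

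Top2a was at 21.3, 21.97, 16.6, 31.4 and 25.9 CPM in the saline libraries and at 211, 119, 234, 147 and 103 CPM in the antibody libraries. Every antibody library lay above every saline library. Top2a rose by 2.80 (log2, SE 0.28, adjusted p = 6.6e-05). Mki67, the standard marker of cycling cells, was at 42.2, 40, 40.9, 77.4 and 52.9 CPM with saline and at 435, 293, 535, 362 and 195 CPM with the antibody, and rose by 2.84 (log2, SE 0.31, adjusted p = 7.1e-05). Rrm2 rose by 2.96 from 4.74 ± 1.06 to 36.8 ± 16.2 CPM (mean ± SD, n = 5 each; log2, SE 0.31, adjusted p = 7e-05), and Cdk1 rose by 2.47 from 3.07 ± 0.54 to 17.02 ± 6.22 CPM (log2, SE 0.26, adjusted p = 7e-05). Antibody replicates 1 and 3 were the highest and replicate 5 the lowest of their group for these 4 genes, and the groups overlapped in none of them. Of the 32 calls, 20, 28 and 22 held in the 3 checks, 20 of them in all 3. With OVA and the isotype control, 34 of the 35 were higher than in the same saline libraries (median 2.14). None of the 35 was called between the antibody and isotype groups, where 0.302% of all genes were called. The median log2 change of antibody against isotype was -0.18, with 3 of the 35 positive.

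Goblet cell genes had the largest median change of the 54 lists. Of 20 genes that build, process or line airway mucus, 16 were higher and none lower, with a median log2 change of 4.74, which was the same with the one gene at 0 in saline set to its bound. Clca3, the older symbol of Clca1, a secreted mucus component, was at 0.113, 0.581, 0.202, 0 and 3.18 CPM with saline and 7455, 596, 6007, 2403 and 637 CPM with the antibody. Saline replicate 5 was the highest of its group and still far below the lowest antibody library. Clca3 rose by 12.14 (log2, SE 1.29, adjusted p = 7e-05). Muc5ac, the mucin induced in allergic airways, was at 2.18, 7.402, 0.757, 1.198 and 2.26 CPM with saline and 1768, 76.6, 1584, 359.5 and 67.4 CPM with the antibody, and rose by 8.09 (log2, SE 1.18, adjusted p = 0.00031). Antibody replicates 1 and 3 stood far above replicates 2 and 5, and all 5 above every saline library. Muc5b, the resident airway mucin, was at 111, 259, 4.54, 18.6 and 22.1 CPM with saline and 3192, 257, 3601, 839 and 662 CPM with the antibody, so the groups overlapped at saline replicate 2. Muc5b rose by 4.36 (log2, SE 1.00, adjusted p = 0.0059).

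Replicates 1 and 3 were also the highest and replicates 2 and 5 the lowest in the summed level of the list, which was 14450 and 13090 CPM in replicates 1 and 3, 4416 in replicate 4 and 1448 and 1696 in replicates 2 and 5, against 72.6 to 435.7 CPM with saline. Fcgbp, a mucin-bound protein, was at 7.49, 10.5, 3.99, 3.38 and 3.91 CPM with saline and 992, 102, 1014, 349.8 and 85.5 CPM with the antibody (rose by 6.42; log2, SE 0.89, adjusted p = 0.00021). Retnlb, a resistin-like protein of mucosal secretions, had no count in any saline library and was at 11.8, 2.62, 12.4, 11.8 and 0.227 CPM with the antibody, which is at least 264-fold higher if 3 counts are allowed for the 5 saline libraries together. Capn9, a calpain of mucous epithelium, rose by 7.85 (log2, SE 1.11, adjusted p = 0.00025), and Pigr, the receptor that carries IgA into mucus, rose by 2.11 (log2, SE 0.41, adjusted p = 0.0024). With the Rn45s share as a covariate 4 of the 16 calls held, with the cardiac level 15, and with replicates 2 and 5 alone 9. Of the list, Muc5ac (adjusted p = 0.052) and Muc5b (0.19) were among those lost in the first, and Muc5b (0.23) in the last. Capn9 and Pigr are not members of the list. Capn9 (0.050) and Pigr (0.15) were also lost in the first, and Pigr (0.17) in the last. Clca3, Fcgbp, Retnlb and Slc26a4 passed in all 3. In the isotype group 16 of 20 were also higher than saline (median 5.12). None of the 20 was called between the 2 OVA groups, where 0.302% of all genes were called. The median log2 change of antibody against isotype was -0.61, with 2 of the 20 positive. The summed level was 3640 to 23010 CPM with the isotype control. Antibody replicates 2 and 5 lay below that range and replicates 1, 3 and 4 within it.

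**Figure D2:**
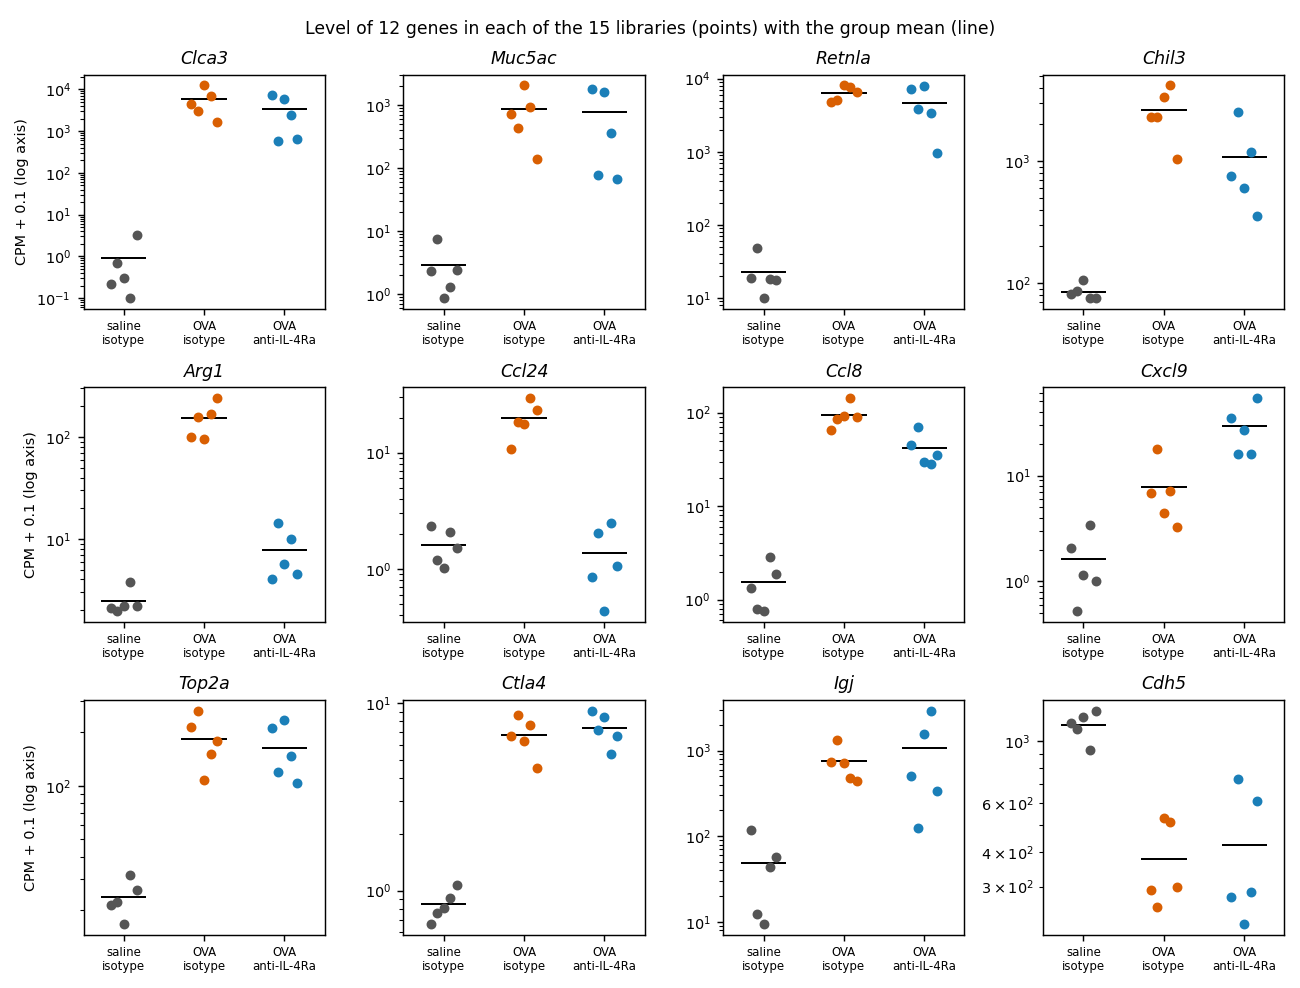
CPM of 12 genes in each of the 15 libraries on a log axis after adding 0.1, with points for libraries and lines for group means. Clca3, Muc5ac, Retnla, Ccl8, Top2a and Ctla4 of the antibody libraries stay above all saline libraries, Ccl24 overlaps the saline libraries, Arg1 sits just above its own saline range, and Cxcl9 lies above all isotype libraries in 3 of 5 antibody libraries.

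Genes of alternatively activated macrophages divided. Of 22, 12 were higher and 2 lower than saline (median 0.97), and 6 were called lower than with OVA and the isotype control. Retnla, a resistin-like protein induced by IL-4 and IL-13, was at 19.01, 48.2, 9.89, 18.4 and 17.6 CPM with saline and 7123, 3877, 8008, 3441 and 958 CPM with the antibody, against 4860.0, 5067, 8154, 7731 and 6498 CPM with OVA and the isotype control. Retnla rose by 7.69 against saline (log2, SE 0.62, adjusted p = 8.1e-06) and was not called against the isotype group (log2 -0.47 ± 0.47, adjusted p = 1.0). Chil3, a chitinase-like protein, was at 81.3, 85.6, 105, 75.1 and 75.7 CPM with saline and 760.1, 2527, 599, 1194 and 354 CPM with the antibody, and rose by 3.68 (log2, SE 0.48, adjusted p = 0.00015). Chil3 has a near-identical copy, Chil4, so the division of reads between them is uncertain. Both genes thus remained above saline in every antibody library.

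Arg1, the arginase of these macrophages, was at 1.995, 1.86, 2.12, 3.65 and 2.08 CPM with saline, 99.9, 156, 94.6, 169 and 241 CPM with OVA and the isotype control, and 3.97, 14.3, 5.59, 9.82 and 4.37 CPM with the antibody. The antibody libraries lay above all saline libraries and below all isotype libraries. Arg1 rose by 1.71 against saline (log2, SE 0.37, adjusted p = 0.0043) and was 4.32 lower on the log2 scale than in the isotype group (adjusted p = 6.8e-05). Ccl24, an eotaxin, was at 2.22, 1.08, 0.908, 1.96 and 1.41 CPM with saline, 10.7, 18.2, 17.6, 29.3 and 22.97 CPM with OVA and the isotype control, and 0.744, 1.93, 0.333, 2.35 and 0.966 CPM with the antibody. Its antibody and saline libraries overlapped, with a difference of -0.26 ± 0.42 (log2 ± SE, adjusted p = 0.68). Rnase2a, a ribonuclease of the eosinophil-associated family whose members share sequence, was at 1.24, 4.82, 0.865, 1.55 and 0.227 CPM with the antibody against 92.8 ± 41.7 CPM with the isotype control and 0.154 ± 0.0978 CPM with saline, and rose by 3.45 against saline (log2, SE 0.74, adjusted p = 0.0039), with overlap at antibody replicate 5. Cd209e, a lectin of the same list, rose by 3.34 (log2, SE 0.49, adjusted p = 0.00031). The Arg1 call was lost with the Rn45s share (adjusted p = 0.12) and the cardiac level (0.19) as covariates, and the Rnase2a call with the cardiac level (0.089). In the 3 checks, 8, 6 and 8 of the 12 calls held.

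Chemokines were higher than saline in both families. Of 18 CC chemokines 9 were higher and none lower (median 1.05), and of 16 CXC and other chemokines 9 were higher and 3 lower (median 1.12). Ccl8, a ligand of CCR8 on T helper 2 cells, was at 1.24, 0.698, 0.656, 2.78 and 1.77 CPM with saline and 44.9, 70.03, 29.5, 28.4 and 35.3 CPM with the antibody. Ccl8 rose by 4.89 (log2, SE 0.39, adjusted p = 8.1e-06) and was among the CC chemokines that passed in all 3 checks, with Ccl2, Ccl7, Ccl12, Ccl20 and Ccl22. Ccl20, the ligand of CCR6, was at 0.226, 0.659, 0.101, 0.109 and 0.183 CPM with saline and 13.1, 3.86, 9.19, 4.71 and 3.18 CPM with the antibody (rose by 4.61; log2, SE 0.57, adjusted p = 0.00012). Ccl22, a dendritic cell product that attracts CCR4-bearing T cells, rose by 2.51 from 3.49 ± 1.14 to 20.02 ± 6.02 CPM (log2, SE 0.31, adjusted p = 0.00011). Ccl11, the other eotaxin measured, was at 4.18, 1.74, 0.858, 1.14 and 1.59 CPM with saline and 1.98, 12.5, 4.39, 5.11 and 1.82 CPM with the antibody, with overlap. Ccl11 rose by 1.41 (log2, SE 0.49, adjusted p = 0.043), a call lost in each of the 3 checks (adjusted p = 0.23, 0.30 and 0.12) at log2 changes of 1.43, 1.33 and 1.86. The Ccl11 call was also lost without any one of antibody replicates 2, 3 and 4 or saline replicates 2, 3, 4 and 5 (adjusted p 0.064 to 0.18), and its log2 change was 0.75 without antibody replicate 2.

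Among CXC chemokines, Cxcl9, an interferon-gamma-induced ligand of CXCR3, was at 1.96, 0.426, 1.06, 3.32 and 0.916 CPM with saline, 6.75, 17.5, 4.32, 6.98 and 3.18 CPM with OVA and the isotype control, and 34.95, 15.7, 26.6, 15.9 and 53.7 CPM with the antibody. Cxcl9 rose by 4.26 against saline (log2, SE 0.57, adjusted p = 0.00018). The difference from the isotype group was 1.92 ± 0.51 (log2 ± SE, adjusted p = 0.22). Cxcl10, another CXCR3 ligand, was at 1.92, 2.94, 1.41, 4.19 and 1.53 CPM with saline and 11.1, 5.78, 9.39, 5.52 and 19.3 CPM with the antibody and rose by 2.09 (log2, SE 0.37, adjusted p = 0.0013). Cxcl5, a neutrophil attractant of epithelium, rose by 3.26 from 0.451 ± 0.243 to 4.54 ± 2.69 CPM (log2, SE 0.54, adjusted p = 0.00077). Cxcl13, the B cell attractant of follicles, rose by 2.18 (log2, SE 0.53, adjusted p = 0.0084), a call lost with the Rn45s share (adjusted p = 0.18) and with replicates 2 and 5 alone (0.19). Over the wider interferon-gamma response, 9 of 23 genes were higher and none lower (median 0.50), of which 3 held in each check. The type I interferon list had 3 of 19 higher, near the share of all genes, 0, 1 and 0 in the checks, and 1 without any one of antibody replicates 3, 4 and 5 or saline replicates 2, 3, 4 and 5.

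Acute phase and type 17 genes formed a smaller group, with 5 of 11 higher and none lower (median 0.36). Saa3, a serum amyloid of inflamed tissue, was at 13.1, 6.78, 5.401, 33.2 and 12.6 CPM with saline and 80.2, 172, 55.6, 87.7 and 173 CPM with the antibody and rose by 3.00 (log2, SE 0.44, adjusted p = 0.00034). Lcn2, which binds bacterial siderophores, was at 44.1, 106, 49.5, 51.9 and 60.5 CPM with saline and 154, 221, 95.7, 76.1 and 245 CPM with the antibody, where antibody replicates 3 and 4 fell below saline replicate 2. Lcn2 rose by 1.35 (log2, SE 0.34, adjusted p = 0.011), a call lost with the cardiac level as a covariate (adjusted p = 0.072). Neutrophil markers did not stand out, with 2 of 14 higher and a summed level of 262.1 to 456.1 CPM with saline and 291.5 to 448.4 CPM with the antibody.

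Genes of T cell help and of its restraint were higher with anti-IL-4Ra. Of 20 co-stimulation and checkpoint genes 16 were higher and none lower (median 1.73), of 15 T cell markers 13 (median 1.46), and of 14 T helper 2 and regulatory T cell genes 12 (median 1.2). Ctla4, the inhibitory receptor of regulatory and activated T cells, was at 0.565, 0.659, 0.707, 0.817 and 0.977 CPM with saline and 9.01, 7.09, 8.39, 5.25 and 6.59 CPM with the antibody. Ctla4 rose by 3.29 (log2, SE 0.23, adjusted p = 3.2e-06), the smallest adjusted p of the genes named here. Icos, a co-stimulator of helper T cells, was at 2.94, 2.21, 2.57, 3.81 and 2.81 CPM with saline and 25.2, 14.7, 20.8, 11.4 and 11.2 CPM with the antibody (rose by 2.54; log2, SE 0.26, adjusted p = 7e-05). Tnfrsf9 (4-1BB) rose by 3.24 from 1.96 ± 0.335 to 18.6 ± 6.199 CPM (log2, SE 0.28, adjusted p = 1.4e-05). Pdcd1 (PD-1) rose by 3.33 from 0.968 ± 0.805 to 9.66 ± 2.91 CPM (log2, SE 0.45, adjusted p = 0.00017). All libraries of the antibody group lay above all saline libraries for these 4 genes.

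Ccr8, a chemokine receptor of T helper 2 and regulatory T cells, was at 0.376, 0.0775, 0.151, 0.218 and 0.183 CPM with saline and 2.89, 1.45, 2.197, 0.942 and 2.21 CPM with the antibody (rose by 3.20; log2, SE 0.42, adjusted p = 0.00016). Il10, a suppressive cytokine, was at 0.226, 0.0775, 0.101, 0.109 and 0 CPM with saline and 0.909, 0.6198, 0.999, 1.01 and 1.36 CPM with the antibody (rose by 3.08; log2, SE 0.42, adjusted p = 0.00019). Il21, the cytokine through which follicular helper T cells act on B cells, had 3 counts over the saline group and was at 4.13, 1.51, 4.93, 1.75 and 1.99 CPM with the antibody. The ratio for Il21 was 99.5 (95% counting interval 33.6 to 487). The Cd4 transcript was at 9.07, 8.798, 13.98, 13.1 and 9.16 CPM with saline and 59.2, 33.6, 50.6, 75.6 and 28.6 CPM with the antibody, and Cd4 rose by 2.19 (log2, SE 0.33, adjusted p = 0.0004). In the 3 checks 9, 9 and 10 of the 16 co-stimulation calls and 6, 7 and 7 of the 12 T helper 2 and regulatory T cell calls held. Only 1, 2 and 2 of the 13 T cell marker calls did, and Cd4 was lost with the Rn45s share (adjusted p = 0.058). The T cell marker median was 0.69, 1.14 and 0.93 in the checks. In the isotype group 18, 12 and 13 of the co-stimulation, T helper 2 and regulatory, and T cell genes were higher than the same saline libraries.

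The cytokines whose receptor was blocked were themselves above saline. Il13 was at 0.0376, 0.0775, 0, 0.218 and 0.183 CPM with saline and 4.54, 4.201, 4.33, 2.29 and 0.227 CPM with the antibody, where replicate 5 stayed near the highest saline library. Il13 rose by 4.91 (log2, SE 0.75, adjusted p = 0.0004). Il4 was at 0.0753, 0.0388, 0.202, 0.327 and 0.122 CPM with saline and 0.909, 0.757, 1.13, 0.673 and 0.114 CPM with the antibody, and Il5, the eosinophil growth factor, at 0.188, 0.271, 0.101, 0.653 and 0.183 and 2.31, 3.72, 1.47, 2.02 and 0.511 CPM. Il4 rose by 2.23 (log2, SE 0.60, adjusted p = 0.014), and Il5 rose by 2.82 (log2, SE 0.53, adjusted p = 0.0018). At these depths 3 counts correspond to 0.109 to 0.244 CPM, so most saline values of the 3 genes rest on a handful of counts. The Il4 call was lost in all 3 checks (adjusted p = 0.45, 0.27 and 0.34) and the Il5 call with both covariates (0.065 and 0.13). Il13 held in all 3. Il33, the epithelial alarmin, was not called (log2 0.62 ± 0.22, adjusted p = 0.053), though it was without antibody replicate 4 (0.035).

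Of the receptor's own parts, Il4ra was at 171, 162, 209.8, 182 and 191 CPM with saline and 123, 178, 115, 156 and 135 CPM with the antibody. Il4ra fell by 0.37 (log2, SE 0.12, adjusted p = 0.036), a call lost in all 3 checks and without any one of antibody replicates 1, 3 and 5 or saline replicates 3, 4 and 5 (adjusted p 0.054 to 0.39). Il13ra1, the chain that pairs with it to bind IL-13, showed a log2 difference of -0.09 ± 0.37 (adjusted p = 0.88) and Stat6 one of -0.11 ± 0.10 (adjusted p = 0.43), both not called. Among 11 tested genes of the receptors and their signalling, 5 rose and 1 fell, and none was called in any of the 3 checks. Without any one of antibody replicates 1, 3 and 4 or saline replicates 1, 2, 3 and 5, 2 or 3 were higher.

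Eosinophil markers were partly above saline. Of 8 tested genes 4 were higher and none lower (median 1.42). Prg2, the major basic protein, was at 0.151, 0.0388, 0.202, 0.163 and 0.366 CPM with saline, 5.53, 4.63, 2.63, 5.54 and 21.6 CPM with OVA and the isotype control, and 1.24, 2.41, 1.93, 4.78 and 0.682 CPM with the antibody, and rose by 3.61 against saline (log2, SE 0.72, adjusted p = 0.0026). Ccr3, the eotaxin receptor, was at 0.6399, 0.388, 0.303, 0.762 and 0.733 CPM with saline and 7.52, 2.89, 6.39, 2.22 and 4.32 CPM with the antibody (rose by 3.04; log2, SE 0.40, adjusted p = 0.00016). Epx, the eosinophil peroxidase, had 3 counts over the saline group and reached at most 0.551 CPM with the antibody, a ratio of 10.6 (95% counting interval 3.18 to 55.2). The summed level of the 8 genes overlapped, at 67.7 to 88.2 CPM with saline and 59.8 to 135.0 CPM with the antibody. Ccr3 alone of the 4 calls held in all 3 checks; Prg2 (adjusted p 0.065 to 0.14) and Epx (0.15 to 0.25) were lost in each, at log2 changes of 2.21 to 3.09 for Prg2.

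Genes of antibody-secreting cells were far above saline in some antibody libraries and less so in others. Of 11 plasma cell genes 10 were higher and none lower (median 2.37), of 12 B cell genes 7, and of 23 genes of endoplasmic reticulum folding 13. Igj, the joining chain of IgA and IgM, was at 118, 12.3, 9.39, 43.8 and 57.4 CPM with saline and 503, 124, 1551, 2896 and 335 CPM with the antibody. Antibody replicate 2 was close to the highest saline library, and replicate 4 was far above it. Igj rose by 4.49 (log2, SE 0.86, adjusted p = 0.002). Mzb1, a chaperone of immunoglobulin assembly, was at 7.11, 2.83, 3.99, 5.17 and 5.13 CPM with saline and 62.6, 20.2, 152, 177 and 24.03 CPM with the antibody and rose by 4.17 (log2, SE 0.62, adjusted p = 0.00036). Edem1, which directs misfolded glycoproteins to degradation, rose by 1.49 (log2, SE 0.26, adjusted p = 0.0012).

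Antibody replicate 4 also had the highest level of lymph node and thymus genes, 207.3 CPM against 55.9 to 86.1 CPM in the other antibody libraries, and of adipose genes, 639.9 CPM against 12.4 to 66.6 CPM. Their part in the B cell and plasma cell values was not tested; without replicate 4, 3 B cell genes were called, and 4 without replicate 3. In the 3 checks 1, 7 and 1 plasma cell genes, 0, 2 and 0 B cell genes, and 0, 4 and 1 folding genes held. The plasma cell median was 0.85, 2.91 and 0.71 in the checks, against 2.37 in the first fit. For B cell genes it was 0.39, 1.86 and 0.60 against 1.52, and for folding genes 0.30, 0.59 and 0.25 against 0.58. Mzb1 was the plasma cell gene that passed in all 3, at log2 changes of 2.19, 4.91 and 2.19. Igj was lost with the Rn45s share (adjusted p = 0.11) and with replicates 2 and 5 alone (0.13), Edem1 in the same fits (0.17 and 0.088). Class II presentation had 10 of 11 genes higher (median 1.17) but 1, 2 and 1 in the checks, at medians of 0.62, 1.27 and 0.71. Without antibody replicate 4, 5 class II genes were higher, with 6 without saline replicate 1 and 6 without saline replicate 2. Ciita, the class II master regulator, rose by 1.29 from 45.4 ± 11.9 to 111 ± 35.95 CPM (log2, SE 0.31, adjusted p = 0.0072), and H2-Ob, a class II chaperone of B cells, rose by 1.60 (log2, SE 0.44, adjusted p = 0.015), both lost in all 3 checks.

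**Figure D3:**
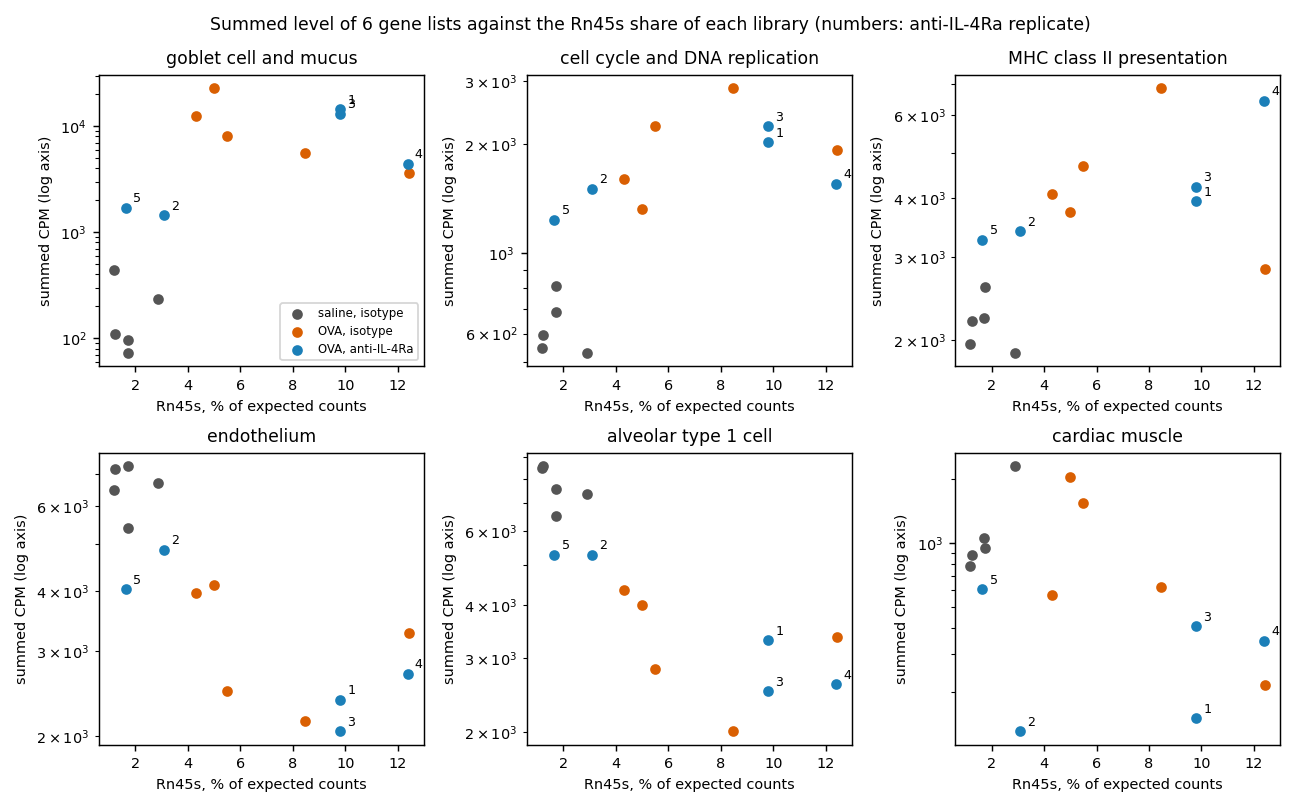
Summed CPM of 6 gene lists (log axis) against the Rn45s share of expected counts in %, 1 point per library, with the antibody replicate number beside each antibody library. Replicates 2 and 5, with Rn45s shares of 3.10 and 1.65%, lie nearest to the saline libraries of the 5 for mucus, endothelium and alveolar type 1 cells, and cardiac levels are lower in all 5 antibody libraries than in any saline library.

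Monocyte and interstitial macrophage genes were higher in part. Of 16, 6 were higher and 1 lower (median 0.34), and in each of the 3 checks the 6 higher calls held and the lower one did not. C1qa, which starts the classical complement cascade, was at 46.3, 26.6, 35.2, 47.6 and 37.3 CPM with saline and 111, 120.4, 115, 198 and 97.1 CPM with the antibody and rose by 1.73 (log2, SE 0.21, adjusted p = 8.8e-05). Ms4a7, a membrane protein of tissue macrophages, was at 3.42, 2.09, 1.51, 5.01 and 4.703 CPM with saline and 15.4, 20.3, 17.04, 15.2 and 27.6 CPM with the antibody (rose by 2.52; log2, SE 0.33, adjusted p = 0.00015). Fcgr2b, the inhibitory Fc receptor, was at 20.4, 14.6, 16.96, 27.3 and 21.9 CPM with saline and 66.2, 72.8, 69.6, 72.9 and 67.4 CPM with the antibody (rose by 1.79; log2, SE 0.15, adjusted p = 9.2e-06). The 5 antibody values of Fcgr2b lay within 66.2 to 72.9 CPM. Of 18 complement genes 7 were higher and none lower (median 0.16), and 5, 6 and 6 held. Marco, a scavenger receptor of alveolar macrophages, rose by 1.57 (log2, SE 0.41, adjusted p = 0.012) and was lost in all 3 checks (adjusted p = 0.22, 0.12 and 0.10) at log2 changes of 1.34, 1.61 and 1.46.

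A small set of genes was apart from both other groups. Of 15905 tested genes, 25 were called both against saline and against OVA with isotype. In 9 of these 25 the antibody libraries were called in the same direction in both comparisons and overlapped neither group, 8 of them higher. Tgfbi, a matrix protein of macrophages and fibroblasts, was at 78.4, 75.5, 80.2, 76.6 and 87.8 CPM with saline, 61.5, 84.5, 70.6, 72.6 and 67.7 CPM with OVA and the isotype control, and 154, 135, 153, 103 and 168 CPM with the antibody. Sirpa, the CD47 receptor of myeloid cells, was at 170.2, 159.5, 173, 183 and 179, 174, 176, 161, 186 and 156 and 311, 255, 264, 269 and 247 CPM in the same order. Tgfbi rose by 0.84 against saline (log2, SE 0.12, adjusted p = 0.00034) and Sirpa rose by 0.64 (log2, SE 0.09, adjusted p = 0.00029). Neither was called between the isotype and saline groups. Both were higher in every antibody library than in any other library, which the selection of these genes required, so it is no separate result.

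Slamf9, a receptor of myeloid cells, was at 5.83, 6.51, 7.72, 6.92 and 7.14 CPM with saline and 15.6, 16.7, 15.4, 22 and 21.5 CPM with the antibody and rose by 1.42 (log2, SE 0.17, adjusted p = 0.00011). Cfb, factor B of the alternative complement pathway, was at 109, 116, 75.5, 144 and 114 CPM with saline and 301, 244, 176, 223 and 236 CPM with the antibody (rose by 1.08; log2, SE 0.17, adjusted p = 0.00045). Clec4n (Dectin-2), a receptor for fungal mannans, rose by 1.03 from 14.1 ± 2.09 to 28.9 ± 7.67 CPM (log2, SE 0.19, adjusted p = 0.0017). Cybb, the oxidase subunit of phagocytes, rose by 0.66 from 189 ± 20.8 to 298 ± 59.5 CPM (log2, SE 0.17, adjusted p = 0.011). Cd209b, a lectin of a family with shared sequence, was the one lower gene, at 2.26, 1.05, 1.16, 1.42 and 1.28 CPM with saline and 0.0826, 0.689, 0.266, 1.01 and 0.568 CPM with the antibody (fell by 1.42; log2, SE 0.41, adjusted p = 0.018). Tgfbi, Sirpa, Slamf9, Cfb and Clec4n passed against saline in all 3 checks. Cybb (adjusted p 0.055 to 0.10) and Cd209b (0.15 to 0.23) were lost in each, at log2 changes of 0.68 to 0.86 and -1.51 to -1.12. Cd209b was also lost without antibody replicate 3 (0.054) or saline replicate 1 (0.055). All of these refits were read against saline. Against the isotype group, the edgeR adjusted p was 0.019 for Cfb, 0.042 for Clec4n, 0.041 for Cybb and 0.03 for Cd209b. No check of that comparison is given here for these genes. The wider list of pattern recognition and formyl peptide receptors had 8 of 19 higher and 1 lower than saline, and 5 higher than in the isotype group.

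Lung structure genes lay below saline. Of 18 endothelial genes 16 were lower and none higher (median -1.06), of 12 alveolar type 1 genes 10 (median -1.06), and of 23 genes of VEGF, angiopoietin and Notch signalling 15 were lower and 1 higher (median -0.76). Of 17 fibroblast, pericyte and mesothelial genes 7 were lower (median -0.92; 11 without antibody replicate 2). Red blood cell genes moved the same way, with 4 of 11 lower (median -1.24; 10 without antibody replicate 2 and 1 or 2 without any one of antibody replicates 1, 3 and 4 or saline replicates 3, 4 and 5). Their summed level was 3774 to 12340 CPM with saline and 584.3 to 7591 CPM with the antibody, and its part in the structure genes was not tested. Cdh5, the cadherin of endothelial junctions, was at 1164, 1106, 1220.0, 926 and 1281 CPM with saline and 274, 728, 220.5, 287 and 609 CPM with the antibody. Cdh5 fell by 1.43 (log2, SE 0.32, adjusted p = 0.0048). Kdr, the main VEGF receptor of endothelium, was at 934, 883, 919, 754 and 984 CPM with saline and 287, 503, 240.5, 302 and 556 CPM with the antibody (fell by 1.24; log2, SE 0.23, adjusted p = 0.0017). Apln, the ligand of the apelin receptor made by sprouting endothelium, fell by 1.55 from 58.3 ± 4.09 to 19.9 ± 8.87 CPM (log2, SE 0.27, adjusted p = 0.00096). Antibody replicates 2 and 5 were the highest of their group for Cdh5 and Kdr and still below all saline libraries.

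Ager (RAGE), abundant on alveolar type 1 cells, was at 1149, 1484, 1415, 1083 and 1524 CPM with saline and 587, 932, 423, 549.9 and 804 CPM with the antibody and fell by 1.01 (log2, SE 0.25, adjusted p = 0.0091). Akap5, a kinase anchor of the same cells, fell by 1.28 from 1029 ± 82.9 to 423 ± 205 CPM (log2, SE 0.28, adjusted p = 0.0046). Tcf21, a factor of lung lipofibroblasts, was at 64.7, 57.4, 92.4, 70.3 and 93.3 CPM with saline and 15.7, 46.3, 12.98, 17.4 and 37.3 CPM with the antibody (fell by 1.54; log2, SE 0.35, adjusted p = 0.0057). Inmt, a methyltransferase of alveolar fibroblasts, fell by 1.75 (log2, SE 0.44, adjusted p = 0.01). None of the 16 endothelial, 10 alveolar type 1 or 15 VEGF and Notch calls held with the Rn45s share as a covariate or with replicates 2 and 5 alone, where the list medians were -0.59 and -0.56, -0.48 and -0.54, and -0.47 and -0.46. With the cardiac level 3, 1 and 5 held, at medians of -1.02, -0.99 and -0.8, close to those of the first fit. With antibody replicates 1, 3 and 4 alone 16, 10 and 15 of the calls were kept, and the medians were -1.43, -1.45 and -1.04. Cdh5, Ager, Akap5, Tcf21 and Inmt were lost in all 3 checks (adjusted p 0.065 to 0.35), though with the cardiac level their log2 changes were -1.35, -1.08, -1.28, -1.44 and -1.67. Kdr and Apln were lost with the Rn45s share (0.095 and 0.055) and with replicates 2 and 5 alone (0.13 and 0.058).

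Surfactant and airway genes were mixed. Of 12 alveolar type 2 genes 5 were lower and 1 higher, with 2 or 3 lower without any one of antibody replicates 1 and 3 or saline replicates 2 and 5. Sftpb, a surfactant protein, was at 1949, 2831, 2445, 2002 and 2488 CPM with saline and 739, 1395, 545, 707 and 1428 CPM with the antibody (fell by 1.28; log2, SE 0.29, adjusted p = 0.0058). Sftpd, the collectin that opsonises microbes, went the other way, at 352, 560.4, 530.2, 465 and 485 CPM with saline and 926, 1235, 656, 748 and 726 CPM with the antibody (rose by 0.84; log2, SE 0.20, adjusted p = 0.0075). Both calls were lost in all 3 checks (adjusted p 0.057 to 0.31), while the sign of each was kept. Sftpc was not called (log2 -0.86 ± 0.37, adjusted p = 0.094; 0.013 without antibody replicate 2), nor was Scgb1a1, the club cell secretoglobin (-1.0 ± 0.37, adjusted p = 0.055; 0.024 without antibody replicate 5 and 0.047 without saline replicate 1). Cyp2f2, a club cell cytochrome, was at 1664, 3818, 2048, 1911 and 2337 CPM with saline and 723, 346, 733, 523 and 1725 CPM with the antibody, overlapping at antibody replicate 5. Cyp2f2 fell by 1.54 (log2, SE 0.40, adjusted p = 0.011), a call lost in all 3 checks (adjusted p 0.17 to 0.36). In all 5 of 14 club cell genes were lower, and 8 without antibody replicate 5. Foxj1, the master gene of ciliated cells, was not called (log2 0.85 ± 0.44, adjusted p = 0.16; 0.044 without antibody replicate 2), and 1 of 16 ciliated cell genes was lower.

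Metabolic, contractile and clock genes changed in part. Of 27 xenobiotic metabolism genes 12 were lower and 1 higher (median -0.91). Gstm1, a glutathione transferase, was at 317, 396, 348, 273 and 348 CPM with saline and 69.3, 109, 73.96, 87.5 and 152 CPM with the antibody and fell by 1.77 (log2, SE 0.29, adjusted p = 0.00078). Gsto1 was the higher member, at 38.2, 58.7, 37.4, 30.6 and 41.6 CPM with saline and 253, 55.98, 214, 94.7 and 74.2 CPM with the antibody, overlapping at antibody replicate 2 (rose by 1.74; log2, SE 0.41, adjusted p = 0.0066). No call of the list held with the Rn45s share or with replicates 2 and 5 alone. The median of the list was -0.31, -0.64 and -0.60 in the 3 checks. Hpgd, which degrades prostaglandins, fell by 1.78 (log2, SE 0.42, adjusted p = 0.0072; lost in all 3 checks, adjusted p 0.12 to 0.17), and Ptger4, a receptor of prostaglandin E2, rose by 1.34 (log2, SE 0.17, adjusted p = 0.00012) and passed in all 3. Timp1, an inhibitor of matrix proteases, was at 3.54, 3.06, 5.199, 5.99 and 5.74 CPM with saline and 14.6, 32.98, 13.4, 9.96 and 14.9 CPM with the antibody (rose by 1.88; log2, SE 0.29, adjusted p = 0.0005), also past the threshold in all 3. Col12a1, a fibril-associated collagen, fell by 1.69 (log2, SE 0.30, adjusted p = 0.0012; lost in all 3, adjusted p 0.060 to 0.085). In the matrix list 7 of 28 were higher and 2 lower, with 3 or 4 higher without any one of antibody replicate 4 or saline replicates 2 and 4.

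Bhlhe41 (Dec2), a repressor of the circadian clock, was at 22.2, 23.8, 23.1, 20.04 and 20.1 CPM with saline and 51.5, 28.3, 64.8, 66.7 and 50.6 CPM with the antibody. Bhlhe41 rose by 1.26 (log2, SE 0.17, adjusted p = 0.0002) and passed in all 3 checks. Arntl (Bmal1), the positive arm of the clock, was at 28.4, 17.7, 9.94, 19.8 and 17.9 CPM with saline and 10.6, 7.44, 10.2, 8.81 and 6.13 CPM with the antibody, overlapping at saline replicate 3. Arntl fell by 1.12 (log2, SE 0.26, adjusted p = 0.006), a call lost with the cardiac level (adjusted p = 0.12) and with replicates 2 and 5 alone (0.051). Nr1d1 (Rev-erb alpha) fell by 1.05 (log2, SE 0.28, adjusted p = 0.012) and was lost in all 3 checks (adjusted p 0.28 to 0.38). The sources used here do not give the hour of collection. In all, 4 of 17 clock genes were higher and 4 lower, with 2 higher without antibody replicate 1 or saline replicate 5. Oxidative phosphorylation (0 of 26 called) and ribosomal proteins (3 of 27, and 1 without most single libraries) did not exceed the share of all genes.

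Genes of heart muscle had the lowest median of the 54 lists. Of 11 cardiac genes 7 were lower and none higher (median -1.81), against 1 lower in the isotype group and 4 without any one of antibody replicates 1 and 3 or saline replicate 1. Myl7, the atrial myosin light chain, was at 125, 38.9, 61.8, 41.7 and 46.7 CPM with saline and 1.24, 0.344, 9.79, 9.42 and 23.4 CPM with the antibody (fell by 2.81; log2, SE 0.88, adjusted p = 0.027). Sln, an atrial regulator of the calcium pump, was at 18.2, 5.503, 6.26, 3.54 and 5.86 CPM with saline and 0, 0, 1.33, 1.21 and 2.27 CPM with the antibody (fell by 2.98; log2, SE 0.84, adjusted p = 0.017). Saline replicate 1 was the highest library for both, and without it neither was called (adjusted p = 0.069 and 0.053). Myl7 was lost without antibody replicate 1 (0.061) or 3 (0.059) too, and both were lost with the Rn45s share and with replicates 2 and 5 alone, at log2 changes of -2.35 and -2.74 in the first. The cardiac covariate is built from this list, so it is no check of these genes. Chrm2, the muscarinic receptor of airway and atrial muscle, was at 17.8, 11.5, 9.94, 11.6 and 13.01 CPM with saline and 3.63, 4.06, 3.93, 2.76 and 8.24 CPM with the antibody and fell by 1.49 (log2, SE 0.37, adjusted p = 0.0093). Chrm2 was lost in all 3 checks (adjusted p 0.26 to 0.40), at log2 changes of -0.90, -0.49 and -1.05. Of 14 smooth muscle genes 4 were lower, none in any check, and 1 or 2 without any one of antibody replicates 1 and 3 or saline replicates 1, 3 and 5. The smooth muscle median was -0.30 in the first fit and 0.23, 0.12 and -0.0 in the 3 checks, so the decrease was not kept there.

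**Figure D4:**
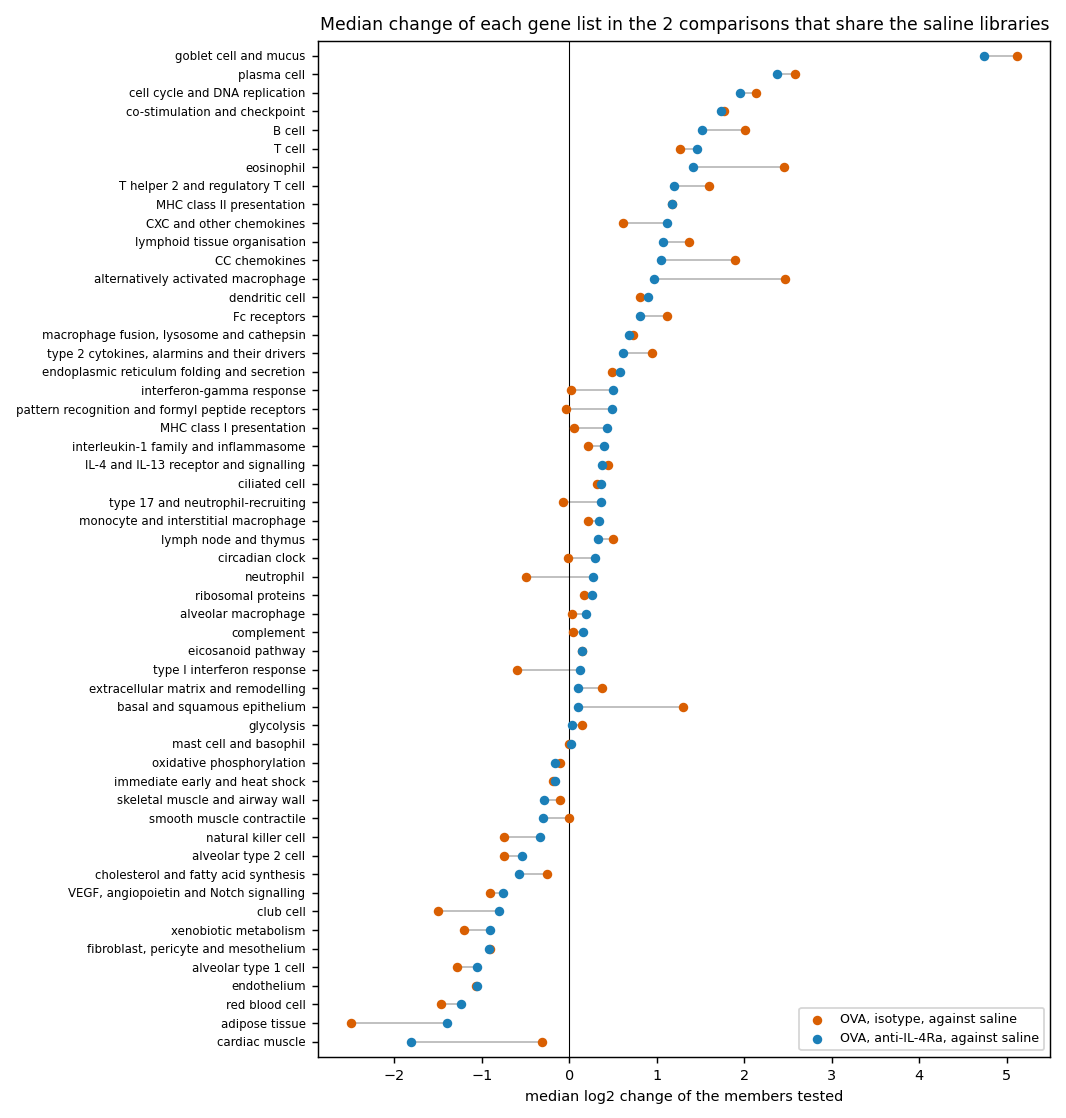
Median log2 change of the tested members of each of the 54 lists, for OVA with anti-IL-4Ra (blue) and OVA with the isotype control (orange), each against the same 5 saline libraries. Alternatively activated macrophage, eosinophil and CC chemokine medians lie nearer 0 with the antibody (0.97, 1.42 and 1.05) than with the isotype control (2.47, 2.45 and 1.89), while mucus, cell cycle and endothelium medians lie close together. The cardiac median is lower with the antibody.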

How the data were processed

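Whole-lung RNA of 15 mice, 5 in each of 3 groups, was sequenced, and the authors deposited RSEM expected counts per gene symbol. Reads were aligned with Bowtie2 2.1.0 and quantified with RSEM 1.2.15, per the submitters' processing notes. Those notes name the human build hg38, while the symbols are mouse symbols, so no coordinate was taken from them. The sources used here do not name the gene annotation, and the labels' protocols name both ribosomal RNA depletion and oligo-dT priming.

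Expected counts were rounded to whole numbers, filtered with filterByExpr over the 3 groups (15905 of 24054 genes remained) and scaled with TMM. All 15 libraries were fitted together with the quasi-likelihood test of edgeR 4.0.16 in R 4.3.3, with Benjamini-Hochberg adjustment over all tested genes and a threshold of 0.05. SEs were derived from the F statistic. Alternatives included limma 3.58.1 (voom), DESeq2 1.42.0, other scalings and filters, covariates, and leaving out each library. Library measures were compared with two-sided exact permutation tests. Intervals cover counting error only.

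The members and gene lists were chosen with earlier results of these data known. Genes were named by rule: the largest non-overlapping changes, the called members of each list with the largest changes, a set of always named genes of the pathway, and genes apart from both other groups. The labels call the libraries biological replicates. Immunoglobulin constant genes and a few other list entries were not analysed here. Promoters come from RefSeq (GRCm38.p6). The test was checked on simulated data.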

Additional observations from a re-analysis of the deposited data

Results flagged for a closer look

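In single genes, 1 library stood far from the other 4 of its group. Among 476 groups of 5 over 239 genes, 61 were so marked. The cut-off marks about 1 in 20 groups when values are normally distributed. Whether CPM values are so distributed was not tested, so the 61 are not read as an excess. Saline replicate 1 accounted for 19 and antibody replicate 4 for 14 of them.

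Saline replicate 2 stood high for airway and secretory genes: Muc5ac at 7.402 CPM, Pigr at 332.5 CPM, Foxj1 at 100.4 CPM, Lcn2 at 105.5 CPM, Retnla at 48.21 CPM and Ccl20 at 0.6589 CPM. Saline replicate 1 stood high for the atrial genes Myl7, at 124.7 CPM, and Sln, at 18.18 CPM, and for Ccl11, at 4.178 CPM. Saline replicate 4 stood high for Arg1, at 3.648 CPM, and Saa3, at 33.21 CPM. Clca3 was high in saline replicate 5, at 3.176 CPM, and Stat6 in saline replicate 3, at 153.8 CPM.

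In the antibody group, replicate 4 stood high for C1qa, at 198.1 CPM, and Stat6, at 164.9 CPM. Replicate 2 stood high for Rnase2a, at 4.82 CPM, and Timp1, at 32.98 CPM. Replicate 5 stood high for Cyp2f2, at 1725 CPM, and Chrm2, at 8.237 CPM.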

How the results depend on the processing

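Of all genes, 373 were called with the Rn45s share as a covariate (322 higher, 51 lower), 815 with the cardiac level (575 and 240) and 452 with antibody replicates 2 and 5 alone (412 and 40), the last chosen after seeing the data. Leaving out each library gave 2844 to 4679 calls, 1580 to 2461 higher and 1247 to 2400 lower. For OVA with isotype against saline, 752 were called with the Rn45s share. Between the OVA groups, DESeq2 called 132. Rn45s itself turned to a log2 change of -0.07 with its own share as a covariate.

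Same-numbered libraries of the antibody and saline groups did not deviate together (correlations of -0.184, -0.293, -0.263, 0.082 and 0.174), so the numbers do not pair them. With the replicate block, 1545 genes were higher and 1346 lower, and 26 were called between the OVA groups. The mitochondrial share was not run, since no such symbol was found among the genes analysed. Depth limits Il4, Il13, Il21, Epx and Retnlb, which had few or no counts with saline.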

Other observations

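Of the 18 lower genes that passed in all 3 checks, none was a member of the 54 lists. They were chosen here after their values were seen. Spon2, an extracellular matrix protein of innate immunity, fell by 1.90 on the log2 scale (adjusted p = 0.00024, edgeR). Adm, the vasodilator adrenomedullin, fell by 1.40 (adjusted p = 0.00017), and Pdgfb, the endothelial growth factor that recruits pericytes, fell by 1.06 (adjusted p = 0.00017). Hs3st1, a heparan sulfate sulfotransferase, fell by 1.27 (adjusted p = 0.00018).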
